A study of Mus musculus with 14 samples.

Results

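The genes described here are 44 genes of DNA replication, from origin licensing to histone and nucleotide supply. They were taken by gene symbol from a given list, and their values come from arrays of mouse brain that carry 22626 probe sets besides the controls. Where a gene had several probe sets, the one that was brightest on average (mean log2 intensity over the 14 arrays) stood for it. A probe set annotated with that gene alone was present for 42 of the 44 genes (of 12393 such genes on the array), and Gins2 and Chaf1a had none. Of the 42, 35 were bright enough to pass the filter on low values (a mean log2 intensity at or above the 40th percentile of probe sets), and Orc1, Cdc6, Cdc45, Pola1, Pola2, Pole and Tyms did not.

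A cell copies its DNA in S phase. Before that, the origin recognition complex, Cdc6 and Cdt1 load the ring of MCM subunits on DNA at origins, and geminin (Gmnn) holds Cdt1 back outside that window. At the start of S phase Cdc45 and the GINS complex turn the loaded ring into an active helicase, which RPA, primase, the DNA polymerases, the sliding clamp PCNA and its loader RFC follow along the fork. In the developing brain these genes are known for high expression in dividing progenitors and low expression in neurons, which have left the cell cycle.

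All mice were labelled T9H/+, and each was also labelled with 1 of 2 reciprocal duplication genotypes. No array came from mice without a duplication. MatDp7 mice had a maternal duplication of proximal chromosome 7 with a paternal duplication of proximal chromosome 15. PatDp7 mice had a paternal duplication of proximal chromosome 7 with a maternal duplication of proximal chromosome 15. The 14 arrays held 4 of neonatal cortex (labelled as forebrain), 4 of neonatal cerebellum and 4 of whole brain at 15.5 days post coitum (dpc), each with 2 biological replicates per duplication. Whole brain at 13.5 dpc had 1 array per duplication. The labels give no treatment and do not say how many animals each RNA came from, so p-values measure the spread between these samples. Age and dissection change together between 15.5 dpc and birth, since the embryonic samples are whole brain and the neonatal ones are parts of it, and the 2 cannot be told apart.

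The intensities are linear array signals that the authors scaled to a common trimmed mean. The arrays' median intensities ran from 213 to 281 over all probe sets other than controls. The 4 neonatal arrays numbered replicate 1 stood apart in their brightest probe set, at 43099 to 61172 against 17662 to 25858 on the other 10 arrays. The tissue labels held on marker genes: 4 cortex markers summed to 6127 to 8017 in the cortex arrays and 459 to 728 in the cerebellum arrays, and 6 cerebellum markers summed to 2980 to 4118 in cerebellum and 436 to 734 in cortex. The paternally expressed chromosome 7 genes Peg3 and Ndn were higher in PatDp7 by 4.58 and 6.33 on the log2 scale, the direction that the duplication labels give (limma adjusted p = 0.000997 and 2.88e-07).

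The summed intensity of the 35 tested genes fell into separate bands by age. It was 42410 and 45429 on the 13.5 dpc arrays and 25005 to 29393 on the 15.5 dpc arrays. In neonatal tissue it was 13528 to 16035 in cortex and 14969 to 16190 in cerebellum, so the ages did not overlap and the neonatal regions did. Whether fewer cells made these transcripts or each cell made less of them cannot be told apart in whole tissue.

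**Figure D1:**
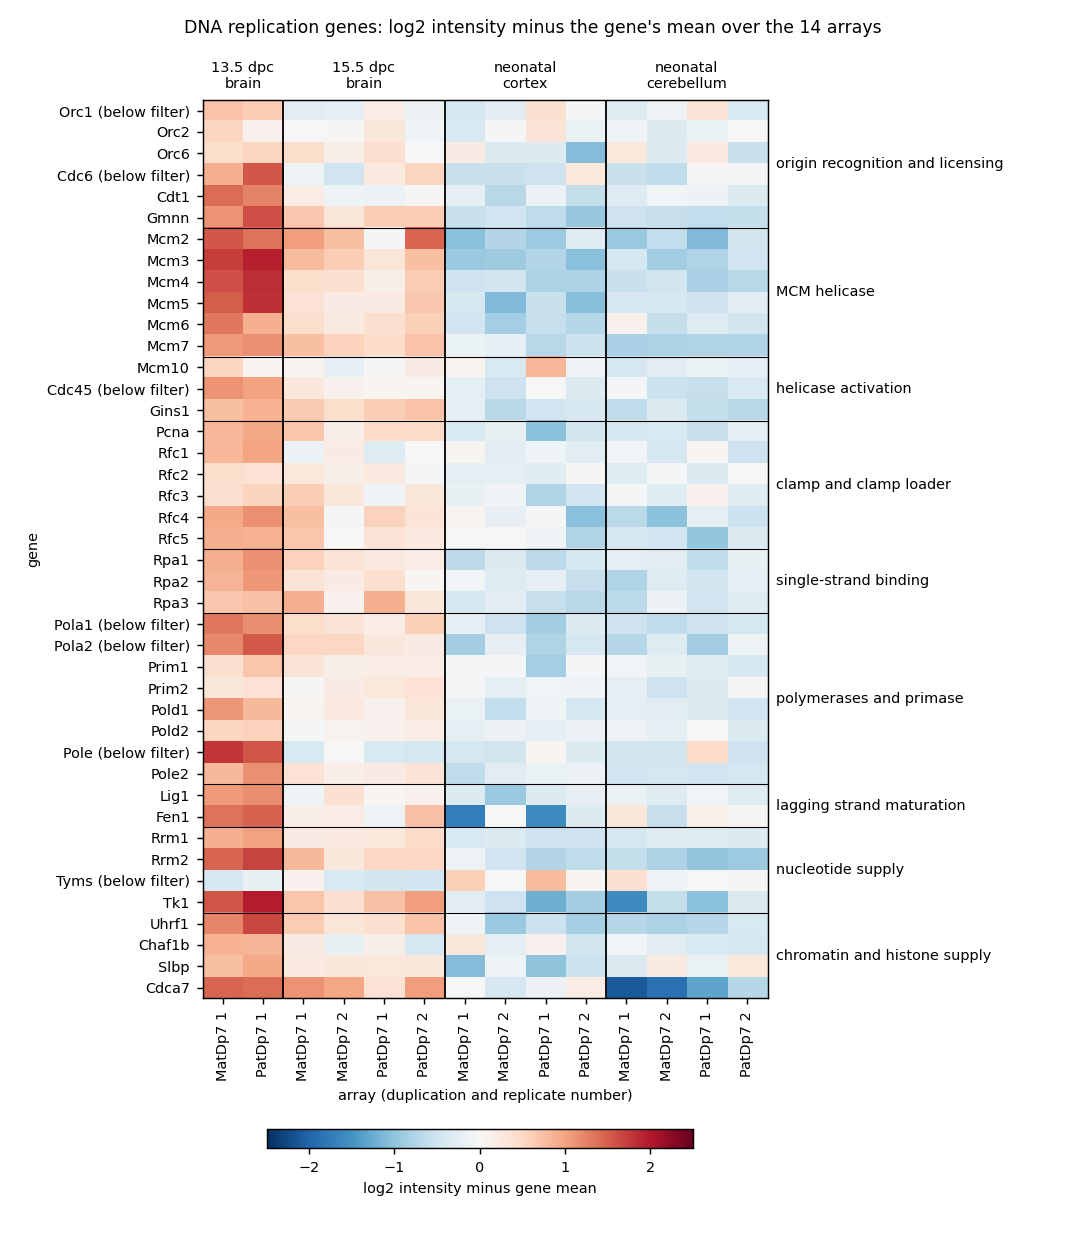
Each row is 1 of the 42 replication genes with a probe set, grouped by role, and each column is 1 of the 14 arrays; colour is the log2 intensity minus the gene's mean over the 14 arrays. Most rows run from red at 13.5 dpc through pale red at 15.5 dpc to blue in both neonatal regions, with Tyms the row that runs the other way and Cdca7 the row with the deepest blue in cerebellum.

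The 6 MCM subunits form the ring of the replicative helicase. All 6 fell between 15.5 dpc and birth, with differences of -1.58 to -0.90 on the log2 scale and with no overlap between the neonatal and the 15.5 dpc arrays (9.61% of all tested probe sets were lower in this way). Mcm3, Mcm4 and Mcm5 had also fallen between 13.5 and 15.5 dpc, with differences of -1.32 to -1.22. Differences are on the scale log2(intensity + 52.0), which understates the change of dim probe sets, and a gene was called at a Benjamini-Hochberg adjusted p under 0.05 from limma over all 13576 probe sets tested.

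In the sentences that follow, 4 values of a tissue are given in the order MatDp7 replicate 1, MatDp7 replicate 2, PatDp7 replicate 1 and PatDp7 replicate 2, and the pair at 13.5 dpc as MatDp7 then PatDp7. Mcm7 (probe set 1438320_s_at) had intensities of 3645 and 3846 at 13.5 dpc, 2911, 2564, 2376 and 2824 at 15.5 dpc, 1523, 1481, 1036 and 1155 in neonatal cortex, and 957, 969, 997 and 991 in neonatal cerebellum. The ages were in strict order on every array, and the cerebellum arrays lay close together. Mcm7 fell from 15.5 dpc to birth by 1.21 ± 0.116 (SE) on the log2 scale (limma adjusted p = 0.00337), while its difference of -0.48 ± 0.164 from 13.5 to 15.5 dpc was not called (adjusted p = 0.138).

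Mcm3 (1420028_s_at) read 1112 and 1312 at 13.5 dpc, 561, 487, 386 and 541 at 15.5 dpc, 134, 139, 161 and 119 in cortex, and 208, 143, 157 and 203 in cerebellum. Its 3 ages were separate as well. It fell by 1.22 ± 0.209 from 13.5 to 15.5 dpc (adjusted p = 0.0149) and fell by 1.38 ± 0.148 from there to birth (adjusted p = 0.00365). Mcm4 (1416214_at) stood at 1512 and 1785 at 13.5 dpc, 645, 625, 514 and 742 at 15.5 dpc, 306, 319.6, 243 and 249 in cortex, and 295, 320.4, 239 and 263 in cerebellum. In both neonatal regions its MatDp7 arrays were above its PatDp7 arrays, a parental difference that was not called in either (adjusted p = 1.0 in both). Mcm4 fell by 1.32 ± 0.174 at the earlier step (adjusted p = 0.00641) and by 1.04 ± 0.123 at the later one (adjusted p = 0.00407).

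The other MCM subunits were called at the later step with adjusted p-values of 0.0128 for Mcm2, 0.0129 for Mcm6 and 0.0152 for Mcm5. Mcm2 varied most at 15.5 dpc, where its arrays read 1180.2, 959, 533 and 1595, and the range took in the 13.5 dpc values of 1702 and 1470 in part. Further probe sets of Mcm2, Mcm3, Mcm4 and Mcm6 were each called lower at the later step, as were 2 of the 3 further ones of Mcm7. At the earlier step the further probe set of Mcm3 was not called (a difference of -0.78 ± 0.321, adjusted p = 0.226).

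**Figure D2:**
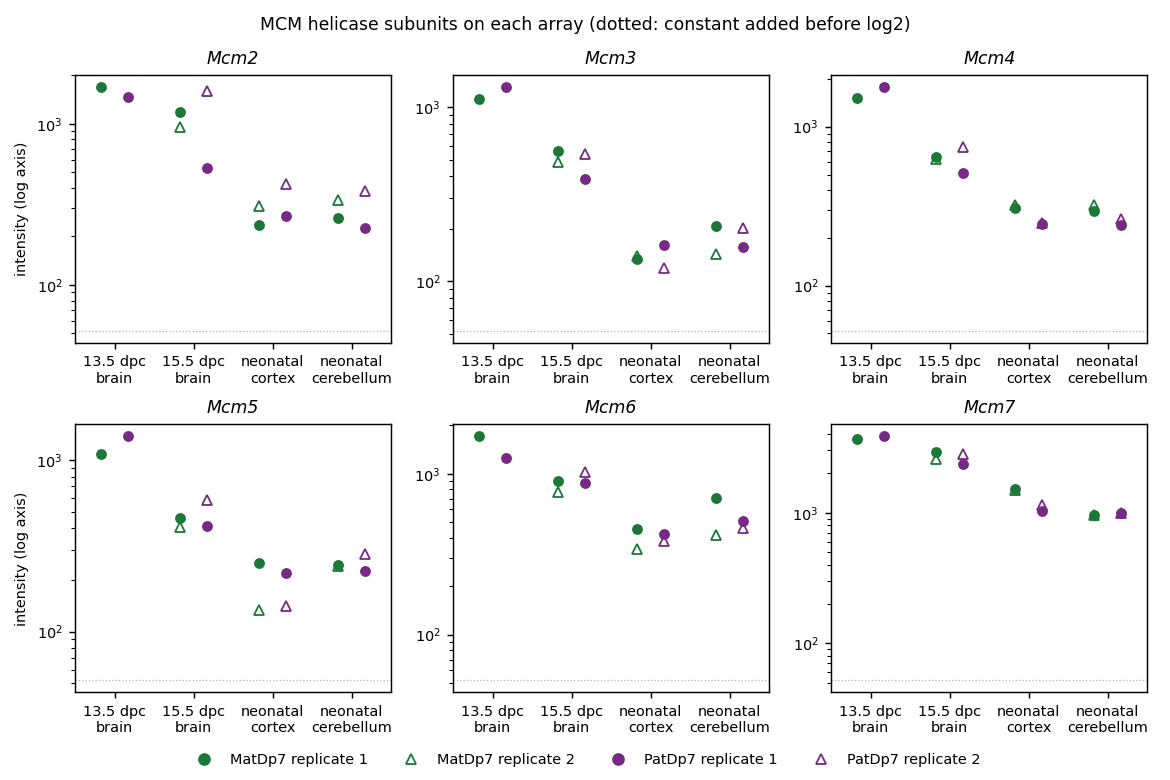
Intensity of the 6 MCM subunits on each of the 14 arrays, on a log axis, by tissue; colour gives the duplication, filled circles replicate 1 and open triangles replicate 2. Every neonatal point lies under every 15.5 dpc point in all 6 panels, and at 13.5 dpc both points lie above the 15.5 dpc points except for Mcm2.

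E2F factors are the classical activators of replication genes at the entry to S phase, so promoter windows from RefSeq (GRCm38.p6, 250 bases before to 50 bases after a gene's start) were searched for E2F sites. Windows were matched by symbol for 37 of the 44 genes; Pole, Mcm4, Rfc2, Gins2, Prim2, Gmnn and Gins1 were not matched. The words searched on both strands were TTTGGCGC, TTTCCCGC, TTTCGCGC and TTTGCCGC. At least 1 of them stood in the windows of 14 of the 37 genes (37.8%), against 2.60% of the 27025 genes in the table. CCAAT stood in 24 of the 37 (64.9% against 41.1%), and the CHR element TTTGAA, known from genes of late cell cycle phases, in 4 (10.8% against 20.2%). Of the 77 matches in the windows of these genes, 2 overlapped a match of another motif, an E2F word and a CCAAT in Mcm7. Stretches of 30 or 60 bases around matches are printed for the 4 genes with an E2F match and the smallest adjusted p between 15.5 dpc and birth, with Mcm5 and Mcm6 added after their values were seen because 2 words on opposite strands overlap there; 1 of the 2 E2F matches of Mcm7 and 1 of the 3 of Mcm6 lie outside the stretches. Each runs 5′ to 3′ on the gene's strand with E2F words in capitals, and the matches are letters in a window, with no measure of binding here.
Mcm7: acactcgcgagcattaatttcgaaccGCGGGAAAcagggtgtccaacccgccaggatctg
Mcm3: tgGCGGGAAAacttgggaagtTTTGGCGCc
Mcm5: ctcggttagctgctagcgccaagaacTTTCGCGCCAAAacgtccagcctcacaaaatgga
Mcm6: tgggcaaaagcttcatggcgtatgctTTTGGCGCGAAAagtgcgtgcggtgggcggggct
Uhrf1: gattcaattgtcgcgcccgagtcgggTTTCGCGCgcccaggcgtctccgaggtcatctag
Cdca7: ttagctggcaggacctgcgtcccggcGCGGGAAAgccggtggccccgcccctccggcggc

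The Mcm7 stretch is chr5:138172015-138172074 on the minus strand, 191 to 132 bases before the start. That of Mcm5 is chr8:75109330-75109389 on the plus strand, 179 to 120 bases before the start, and that of Mcm6 is chr1:128359782-128359841 on the minus strand, 136 to 77 bases before it. In Uhrf1 the stretch is chr17:56304102-56304161 on the plus strand, 211 to 152 bases before the start, and in Cdca7 it is chr2:72476122-72476181 on the plus strand, 97 to 38 bases before it. Both matches of Mcm3 lie after the start, in chr1:20820266-20820295 on the minus strand, bases 18 to 47 of the transcribed part.

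Over all roles, 22 of the 35 tested genes fell from 15.5 dpc to birth and 0 rose, where 7.18% of all tested probe sets were called lower and 4.09% higher. The median difference of the 35 was -0.71, against -0.02 over all probe sets tested. Some of these genes passed the filter through the embryonic arrays: the mean over the 8 neonatal arrays alone reached it for 27 of the 35, and 14 of those 27 were called lower, against 6.65% of all probe sets whose neonatal mean reached it. Without any filter, 19 of the 42 genes were called lower and 0 higher, where 3.98% of probe sets were called lower and 2.23% higher. A difference below 0 of any size was found for 40 of the 42, the exceptions being Pole and Tyms, and for 42.9% of all probe sets. The count fell well below 22 without the 15.5 dpc array MatDp7 replicate 1, PatDp7 replicate 1 or PatDp7 replicate 2. A much smaller share of all probe sets was called in those fits as well. With the filter at the 60th percentile 12 of 20 tested genes were called, where 12.9% of all probe sets were called in either direction. With only the neonatal arrays numbered 1 the count was 27, where 48.6% of all probe sets were called in either direction. With only those numbered 2 it was 23, where 16.3% were, against 11.3% with all arrays.

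Between 13.5 and 15.5 dpc, 10 of the 35 fell and 0 rose, where 2.75% of all tested probe sets were called lower and 2.28% higher. They were Mcm3, Mcm4, Mcm5, Cdt1, Gmnn, Rfc1, Pold1, Lig1, Rrm1 and Rrm2, and the median difference of the 35 was -0.64 against -0.01 over all probe sets. Without the filter, 10 of the 42 were called lower, among them Cdc6, Cdc45 and Pole, and 0 higher, where 3.39% and 1.41% of probe sets were. All 42 had a difference below 0, as had 57.9% of all probe sets. The 13.5 dpc side holds 2 arrays, taken to vary as the other groups do. The count fell in each of the 14 fits with 1 array left out, neonatal or embryonic, and most without a 13.5 dpc array. A smaller share of all probe sets was called as well in most of these fits. The exceptions were those without cortex PatDp7 replicate 1 or PatDp7 replicate 2, where the share rose while the count fell. The count was 6 with a constant of 16, where 4.87% of all probe sets were called in either direction, against 5.04% in the main fit. It was 5, and the share 3.55%, when arrays were scaled to a common median. That scaling moved the median of all probe sets from -0.01 to 0.10.

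The 2 age comparisons share the 15.5 dpc arrays, so an array that reads low there moves them in opposite directions, and their calls are set side by side as a description. Mcm3, Mcm4, Mcm5, Gmnn, Pold1, Rrm1 and Rrm2 were on both lists of called genes. Cdt1, Rfc1 and Lig1 were on the list of the earlier step only, and the calls of Mcm2, Mcm6, Mcm7, Gins1, Pcna, Tk1, Uhrf1, Cdca7, Pole2, the RPA subunits and 3 RFC subunits belonged to the later step. For 19 of the 35 the arrays stood in strict order, with both 13.5 dpc arrays above all 15.5 dpc arrays and these above all 8 neonatal arrays, against 3.66% of all probe sets. In a test of whether the 2 steps were unequal, added after the data were seen, 0 of the 35 genes were called (0.14% of all probe sets were called with the later difference above the earlier one and 0.0589% with it below), and 5 of the 35 had an unadjusted limma p under 0.05, where 11.5% of all probe sets did.

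**Figure D3:**
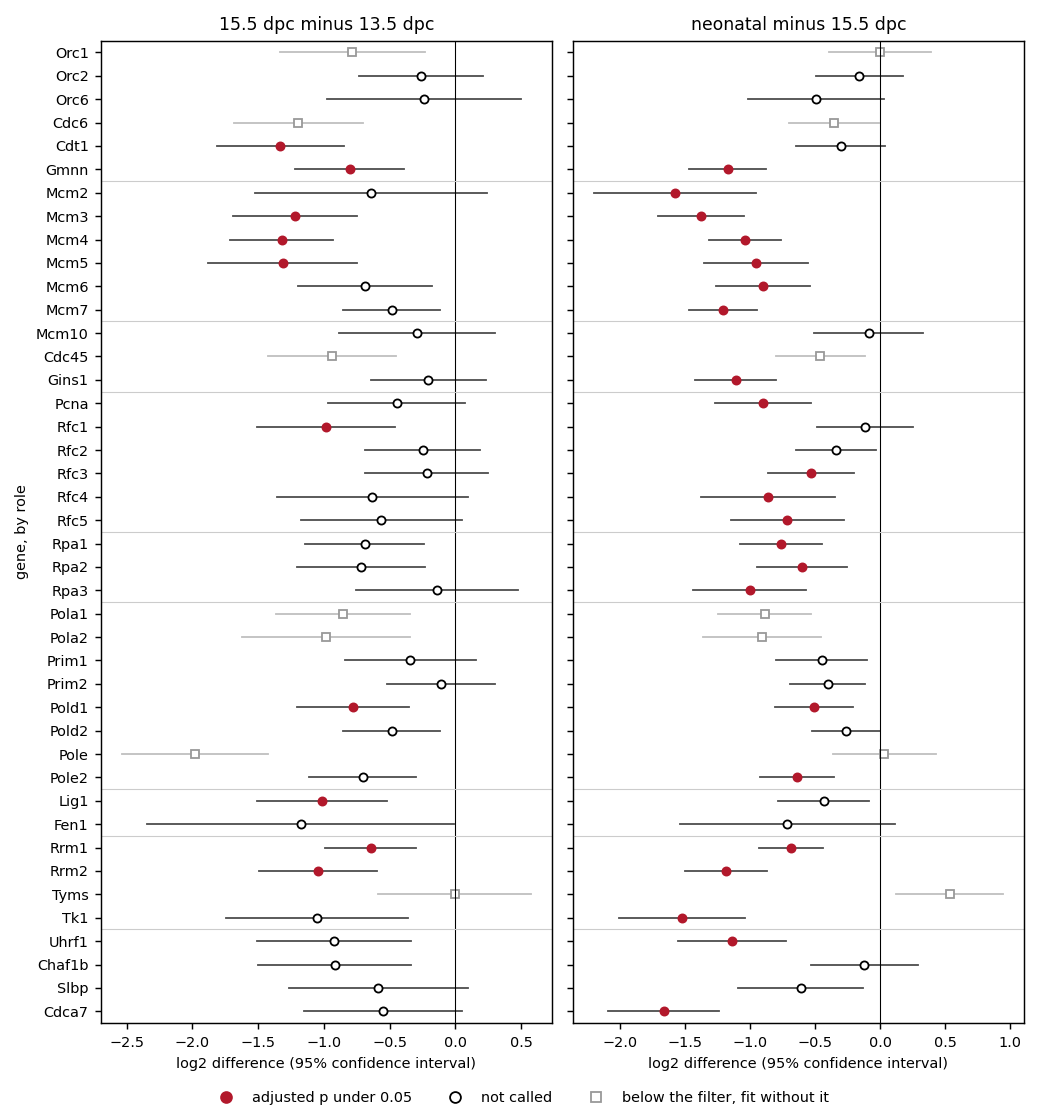
Log2 difference of each of the 42 genes between 13.5 and 15.5 dpc (left) and between 15.5 dpc and birth (right), with 95% confidence intervals from the limma fit; red points were called at an adjusted p under 0.05, and grey squares are genes under the filter. At the earlier step 10 points are red and at the later step 22 are, all left of 0.

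Markers of other cells moved with age as well. The 6 erythroid genes with a probe set summed to 30308 and 36579 at 13.5 dpc, 2732 to 8355 at 15.5 dpc and 689 to 1587 in neonatal tissue, where the embryonic globins Hbb-y and Hbb-bh1 had means under the constant. The 4 meningeal genes summed to 23747 and 24168, then 6045 to 8119, then 1886 to 5541, and 7 neuronal genes ran the other way, from 9110 and 11437 to 21597 to 24636 and then 25779 to 33168. The 9 neural progenitor markers summed to 16767 and 17221 at 13.5 dpc, all below the 18374 to 27325 of 15.5 dpc, and to 15093 to 21996 in neonatal tissue, which overlapped both. Among them Sox2 and Fabp7 rose from 13.5 to 15.5 dpc (1.06 ± 0.175 and 1.10 ± 0.250) and Nes, Neurog2 and Vim fell from 15.5 dpc to birth (-1.19 ± 0.239, -1.93 ± 0.259 and -0.79 ± 0.135). The 4 astrocyte genes summed to 1217 and 1404, then 2832 to 3983, then 4603 to 9241, and Aqp4 and Gfap rose from 15.5 dpc to birth (2.72 ± 0.458 and 1.11 ± 0.238). The 4 oligodendrocyte precursor genes summed to 1892 and 2064, then 1754 to 2693, then 2886 to 5316, and Olig1 and Sox10 rose from 15.5 dpc to birth (1.01 ± 0.199 and 0.54 ± 0.137). Sums over 5 endothelial genes also overlapped between ages, at 2936 and 2963, 2358 to 3516, and 1890 to 3461. The 5 microglia genes summed to 3253 and 3364 at 13.5 dpc, above the 2199 to 3046 of 15.5 dpc. In neonatal tissue they summed to 2357 to 3445, which overlapped both. The part of these cells in the replication genes' differences was not tested.

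Of the genes that license origins, geminin was called at both steps and Cdt1 at the earlier one. Gmnn (1417506_at), which inhibits Cdt1, read 449 and 653 at 13.5 dpc, 318, 232, 307 and 302 at 15.5 dpc, 105, 111, 97.8 and 67.5 in cortex, and 109, 103, 99.1 and 102 in cerebellum. Its ages did not overlap, and 15.5 dpc MatDp7 replicate 2 was the low array of its group. It fell by 0.80 ± 0.184 at the earlier step (adjusted p = 0.0413) and by 1.17 ± 0.130 at the later one (adjusted p = 0.00407); the earlier call was lost with a constant of 16, without the filter and under median scaling and in 12 of the 14 fits with 1 array left out (adjusted p up to 0.415).

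Cdt1 (1424143_a_at), the loading factor itself, stood at 1313 and 1173 at 13.5 dpc, 540, 423, 418 and 477 at 15.5 dpc, 389, 271, 418 and 291 in cortex, and 365, 444, 416 and 350.5 in cerebellum. The 13.5 dpc arrays were far above the rest and the later ages overlapped. Cdt1 fell by 1.33 ± 0.214 at the earlier step (adjusted p = 0.0115), and its later difference of -0.31 ± 0.151 was not called (adjusted p = 0.20). The later difference minus the earlier one was 1.02 ± 0.315, which was not called either (adjusted p = 0.266). A further probe set of Cdt1 was called at both steps, with differences of -1.32 ± 0.163 (adjusted p = 0.00509) and -0.45 ± 0.115 (adjusted p = 0.0396). The origin recognition subunits Orc2 and Orc6 were called at neither step. Orc1 and Cdc6 were under the filter: Orc1 read 177 and 163 at 13.5 dpc and 50.1 to 130 on all later arrays, and Cdc6 read 116 and 214 at 13.5 dpc and 5.85 to 78.4 later.

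Helicase activation was measured through Gins1, Mcm10 and the dim Cdc45. Gins1 (1452598_at), a GINS subunit, had intensities of 363 and 395 at 13.5 dpc, 335, 282, 322 and 350 at 15.5 dpc, 160, 100, 125 and 135 in cortex, and 106, 139, 112 and 99.1 in cerebellum. Embryonic and neonatal arrays were well apart and the 2 embryonic ages were close. Gins1 fell by 1.11 ± 0.138 at the later step (adjusted p = 0.00458), with -0.21 ± 0.195 at the earlier one (adjusted p = 0.682). Cdc45 read 299 and 268 at 13.5 dpc, 113 to 144 at 15.5 dpc and 55.6 to 110 in neonatal tissue, again with separate ages. Mcm10, which helps the helicase start, was called at neither step, with neonatal values of 217 to 589 around 15.5 dpc values of 261 to 364.

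PCNA, the clamp that holds polymerases on DNA, was among the genes called at the later step. Pcna (1417947_at) read 5499 and 5984 at 13.5 dpc, 4936, 3400, 4281 and 4304 at 15.5 dpc, 2322, 2683, 1477 and 2219 in cortex, and 2306, 2318, 2073 and 2611 in cerebellum. No neonatal array reached the lowest 15.5 dpc array. Pcna fell by 0.90 ± 0.162 (adjusted p = 0.0137), with -0.45 ± 0.230 at the earlier step (adjusted p = 0.344).

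The RFC clamp loader opens PCNA and sets it on DNA. Rfc3, Rfc4 and Rfc5 fell at the later step, with differences of -0.87 to -0.53 and adjusted p-values of 0.0418 to 0.0479 that did not survive in 10 of the 14 fits with 1 array left out or in the fit without the filter. Rfc4 (1424321_at) read 216, 172, 198 and 71.8 in cortex and 110, 74.3, 169 and 126 in cerebellum, and 380, 198, 332 and 273 at 15.5 dpc, so that its neonatal and embryonic ranges overlapped. Rfc1 (1418342_at), the large subunit, was called at the earlier step instead. It read 523 and 588 at 13.5 dpc, 240, 318, 204 and 267 at 15.5 dpc, 285, 214, 248 and 216 in cortex, and 257, 187, 279 and 173 in cerebellum. Rfc1 fell by 0.98 ± 0.232 at the earlier step (adjusted p = 0.0450) and its later difference of -0.12 ± 0.164 was not called (adjusted p = 0.628), and the 2 steps did not differ past the threshold (adjusted p = 0.384). A further probe set gave the same pair of calls, while the earlier call was lost in 4 alternatives and in 12 of the 14 fits with 1 array left out. Rfc2 was called at neither step, and the further tested probe set of Rfc3 was not called at the later one.

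All 3 RPA subunits, which coat single-stranded DNA at the fork, fell at the later step. Rpa1 (1437309_a_at) had intensities of 2648 and 3134 at 13.5 dpc, 2097, 1773, 1651 and 1579 at 15.5 dpc, 859, 1075, 857 and 1038 in cortex, and 1177, 1124, 875 and 1214 in cerebellum. It fell by 0.76 ± 0.141 (adjusted p = 0.0149) with the ages in strict order. Rpa3 (1448938_at) read 489 and 511 at 13.5 dpc, within its 15.5 dpc values of 590.5, 316, 576 and 370, and 200, 230, 176 and 158 in cortex and 162, 256, 191 and 222 in cerebellum. Rpa3 fell by 1.0 ± 0.192 (adjusted p = 0.0163), and none of the RPA subunits was called at the earlier step.

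Of the 5 polymerase and primase genes tested, 2 fell at the later step and 1 at the earlier one. Pole2 (1427094_at), a subunit of the leading strand polymerase, read 332 and 433 at 13.5 dpc, 231, 195, 202 and 223 at 15.5 dpc, 89.9, 132, 145 and 147 in cortex, and 106, 113, 105 and 110 in cerebellum. It fell by 0.64 ± 0.127 at the later step (adjusted p = 0.0175). Pold1 (1448187_at), the catalytic subunit of polymerase delta, read 907 and 736 at 13.5 dpc, 418, 480, 427 and 497 at 15.5 dpc, 346, 240, 364 and 280 in cortex, and 322, 316, 301 and 270 in cerebellum. Both genes kept their ages apart on every array. Pold1 fell by 0.78 ± 0.188 (adjusted p = 0.0490) at the earlier step and fell by 0.51 ± 0.133 (adjusted p = 0.0404) at the later one, and both calls were lost without the filter. Prim1, Prim2 and Pold2 were called at neither step, with later differences of -0.45 to -0.27, although a further probe set of Prim2 was called lower at the later step (-0.69 ± 0.182, adjusted p = 0.0410).

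Pola1 and Pole, the catalytic subunits of polymerases alpha and epsilon, were under the filter, as was Pola2. Pola1 read 410 and 359 at 13.5 dpc, 158 to 227 at 15.5 dpc and 49.2 to 105 in neonatal tissue, and Pola2 read 386 and 501, 169 to 222, and 52.1 to 124. Both fell at the later step in the fit without a filter, with differences of -0.89 ± 0.159 and -0.91 ± 0.201 (adjusted p = 0.0177 and 0.0332). Pole was high at 13.5 dpc only: it read 236 and 196 at 13.5 dpc and 6.27 to 62.4 on all 12 later arrays, and fell by 1.98 ± 0.247 at the earlier step in that fit (adjusted p = 0.00229). Its 15.5 dpc values of 9.97 to 31.0 lay inside the neonatal range. Since its mean was under the constant of 52.0 at 15.5 dpc and in both neonatal regions, the size of its earlier difference depends on that constant and a further fall could not have been seen.

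Lig1 and Fen1, which finish the lagging strand, were not called at the later step. Lig1 (1416641_at), the ligase, read 1448 and 1548 at 13.5 dpc, 610, 876, 681 and 715 at 15.5 dpc, 512, 325, 512 and 568 in cortex, and 582, 519, 629 and 527 in cerebellum. It fell by 1.01 ± 0.219 at the earlier step (adjusted p = 0.0345), and its later difference was -0.44 ± 0.155 (adjusted p = 0.0967). The earlier call was lost under median scaling and in fits with 1 array left out, such as those without either 13.5 dpc array. Fen1 (1436454_x_at), the flap nuclease, separated the replicate numbers in cortex, where replicate 1 read 197 and 218 and replicate 2 read 766 and 593. Neither step was called on this probe set, while a further probe set of Fen1 was called at both, with differences of -0.70 ± 0.157 (adjusted p = 0.0378) and -0.66 ± 0.111 (adjusted p = 0.0109).

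All 3 tested genes of nucleotide supply fell at the later step, and Rrm1 and Rrm2 fell at both. Rrm2 (1434437_x_at), the subunit of ribonucleotide reductase made in S phase, had intensities of 1893 and 2229 at 13.5 dpc, 1181, 804, 956 and 965 at 15.5 dpc, 599, 449, 373 and 401 in cortex, and 418, 363, 304 and 325 in cerebellum. Rrm1 (1448127_at), its partner subunit, read 1714 and 1846 at 13.5 dpc, 1049, 1068, 1096 and 1278 at 15.5 dpc, 681, 694, 615 and 610.04 in cortex, and 672, 724, 724 and 698 in cerebellum. Both were in strict age order. Rrm2 differed by -1.05 ± 0.198 (adjusted p = 0.0213) at the earlier and -1.18 ± 0.140 (adjusted p = 0.00407) at the later step, and Rrm1 by -0.64 ± 0.154 (adjusted p = 0.0471) and -0.69 ± 0.109 (adjusted p = 0.00921). The earlier Rrm1 call was lost in all 14 fits with 1 array left out, but a further Rrm1 probe set was called at that step too (-1.06 ± 0.148, adjusted p = 0.00731). A further Rrm2 probe set was not called at the earlier step.

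Thymidine kinase, Tk1 (1416258_at), salvages thymidine in S phase. It read 741 and 986 at 13.5 dpc, 379, 301, 387 and 495 at 15.5 dpc, 169, 134, 61.2 and 93.5 in cortex, and 37.6, 122, 78.6 and 155 in cerebellum. The neonatal arrays were scattered but all lay under the 15.5 dpc arrays, and Tk1 fell by 1.52 ± 0.216 (adjusted p = 0.00618). Thymidylate synthase, Tyms, was dim on its brightest probe set of 1 gene, at 8.85 to 40.9 in embryonic and 28.5 to 96.8 in neonatal arrays, and a probe set that the annotation shares with Tyms-ps was not used.

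Chromatin genes closed the list. Uhrf1 (1415810_at), which carries DNA methylation to the new strand, read 568 and 798 at 13.5 dpc, 365, 279, 302 and 388 at 15.5 dpc, 200, 89.3, 133 and 98.7 in cortex, and 110, 103, 111 and 152 in cerebellum. It fell by 1.14 ± 0.184 at the later step (adjusted p = 0.00955). Cdca7 (1428069_at), a chromatin factor that works with the remodeller Hells, fell by 1.67 ± 0.188 (adjusted p = 0.00407) in the mean of both regions, with differences of -0.97 ± 0.217 in cortex and -2.37 ± 0.217 in cerebellum. The histone chaperone subunit Chaf1b and the histone mRNA binder Slbp were called at neither step; Slbp read 484 and 519 in the cortex arrays numbered 1 and 1011 and 734 in those numbered 2.

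**Figure D4:**
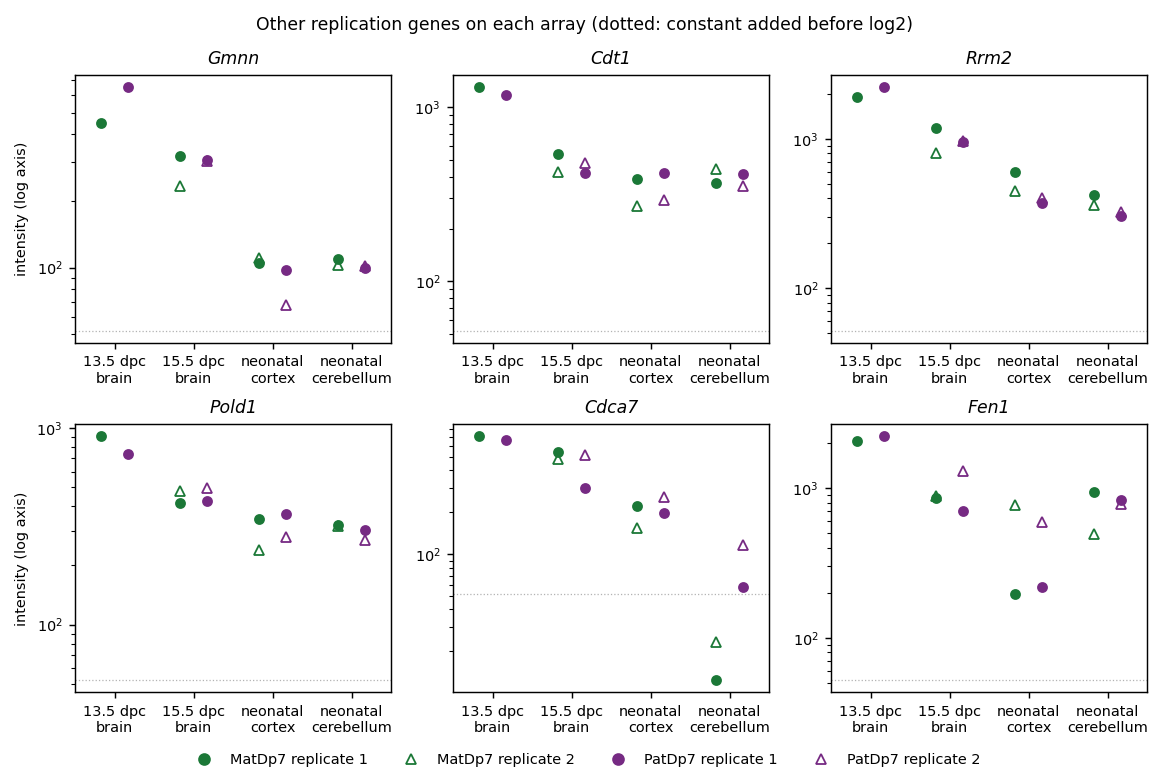
Intensity of Gmnn, Cdt1, Rrm2, Pold1, Cdca7 and Fen1 on each of the 14 arrays, on a log axis, with colour for duplication and shape for replicate number. Gmnn and Rrm2 step down at both ages, Cdt1 is highest at 13.5 dpc and overlaps between the later ages, Cdca7 is lowest in cerebellum, and Fen1 splits by replicate number in cortex.

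Against the shared 15.5 dpc arrays, 16 of the 35 genes fell in cortex (3.76% of all probe sets) and 18 in cerebellum (4.63%). Without the filter 16 and 15 of the 42 genes were called, where 2.79% and 3.74% of all probe sets were called in either direction. In both regions 0 of the 35 rose, where 1.87% of probe sets were called higher in cortex and 2.75% in cerebellum. In cortex the smallest adjusted p-values were those of Mcm3, with a difference of -1.51 ± 0.171 (0.00948), and Gmnn, with -1.22 ± 0.150 (0.00985). In cerebellum they were those of Cdca7, at -2.37 ± 0.217 (0.00208), and Mcm7, at -1.40 ± 0.134 (0.00240). For Mcm3, Gmnn and Cdca7 the mean over the 8 neonatal arrays did not reach the filter, which they passed through the embryonic arrays. The cortex count fell without any of the 15.5 dpc arrays, and without cortex MatDp7 replicate 1, MatDp7 replicate 2 or PatDp7 replicate 1. It fell slightly without either cerebellum MatDp7 array. It fell most without 15.5 dpc MatDp7 replicate 1 or PatDp7 replicate 2, where almost no probe set on the array was called. The cerebellum count fell without any of the 15.5 dpc arrays or cerebellum MatDp7 replicate 1, MatDp7 replicate 2 or PatDp7 replicate 1. In each of these fits a smaller share of all probe sets was called than with all arrays. With the filter at the 60th percentile both counts were 9 of 20 tested genes. In that fit 6.65% of all probe sets were called in either direction in cortex and 8.26% in cerebellum.

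Compared directly, 1 replication gene was called between the 2 neonatal regions in the fit of group means. Cdca7 was higher in cortex, where it read 224, 154, 198 and 259, than in cerebellum, where it read 12.4, 23.3, 58.5 and 117. The regions did not overlap, and both MatDp7 cerebellum arrays lay under the constant of 52.0. The difference was 1.40 ± 0.217 (adjusted p = 0.0320; 0.221% of all probe sets were called higher in cortex and 0.147% lower). The call was lost with the constant at the 40th percentile, without the filter, with the filter at the 60th percentile (where Cdca7 was not tested), under quantile normalization and median scaling, with only the neonatal arrays numbered 2, and without any of 9 of the 14 arrays. In those fits the difference stayed between 0.82 and 1.51 and the adjusted p reached 0.181. The arrays whose loss ended the call were all 4 cortex arrays, cerebellum MatDp7 replicate 1, MatDp7 replicate 2 and PatDp7 replicate 1, and both MatDp7 arrays at 15.5 dpc.

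Of the other 34 genes none was called between regions in this fit, and 3 of the 35 had an unadjusted limma p under 0.05, where 7.4% of all probe sets did. The median difference was 0.01 against 0.02 over all probe sets. Named after their values were seen, Mcm7 followed Cdca7 on the cortex side, at 0.37 ± 0.134 (95% confidence interval 0.07 to 0.68, adjusted p = 0.537). On the cerebellum side stood Slbp, at -0.67 ± 0.246 (interval -1.23 to -0.11, adjusted p = 0.546; called at 0.0141 with the neonatal replicate number as a block, where 1.72% of probe sets were called lower), and Fen1, at -0.88 ± 0.422 (interval -1.83 to 0.07, adjusted p = 0.708). With only the arrays numbered 1 the Fen1 difference was -1.86, and with only those numbered 2 it was 0.10. Granule cell precursors divide in the newborn cerebellum; their 7 markers summed to 5328 to 9876 there and 3753 to 11339 in cortex, sums that overlapped. Of the 6 that were tested, Barhl1 and Meis1, both also among the cerebellum markers, were lower in cortex (-1.75 ± 0.267, limma adjusted p = 0.0289, and -2.46 ± 0.273, adjusted p = 0.00492), and the median of the 6 was -0.50. Their part in the region comparison of the replication genes was not tested.

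The parental origin of the duplications was the study's own question, and 0 of the 35 genes were called between PatDp7 and MatDp7 in the mean of the 3 replicated tissues (0.0958% of all probe sets were called higher and 0.0368% lower). None was called within cortex (0.0737% and 0%), within cerebellum (0.0810% and 0.0295%) or within 15.5 dpc brain (0.0737% and 0%), nor by the limma F-test of whether the parental difference varied by tissue (0%). At an unadjusted p under 0.05 the counts were 0 in the mean, 1 in cortex (Mcm7), 1 in cerebellum (Cdca7), 0 at 15.5 dpc and 1 in the F-test (Cdca7), where 1.43%, 1.97%, 0.906%, 0.656% and 0.494% of all probe sets were under it. The smallest p-values in the mean were those of Rfc3 (-0.25 ± 0.138) and Rrm2 (-0.22 ± 0.132) below 0 and Cdca7 (0.28 ± 0.178) and Mcm10 (0.28 ± 0.175) above it, all with an adjusted p of 1.0. A 95% confidence interval of a single gene's mean parental difference had a median width of 0.66 over the 35 genes.

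**Figure D5:**
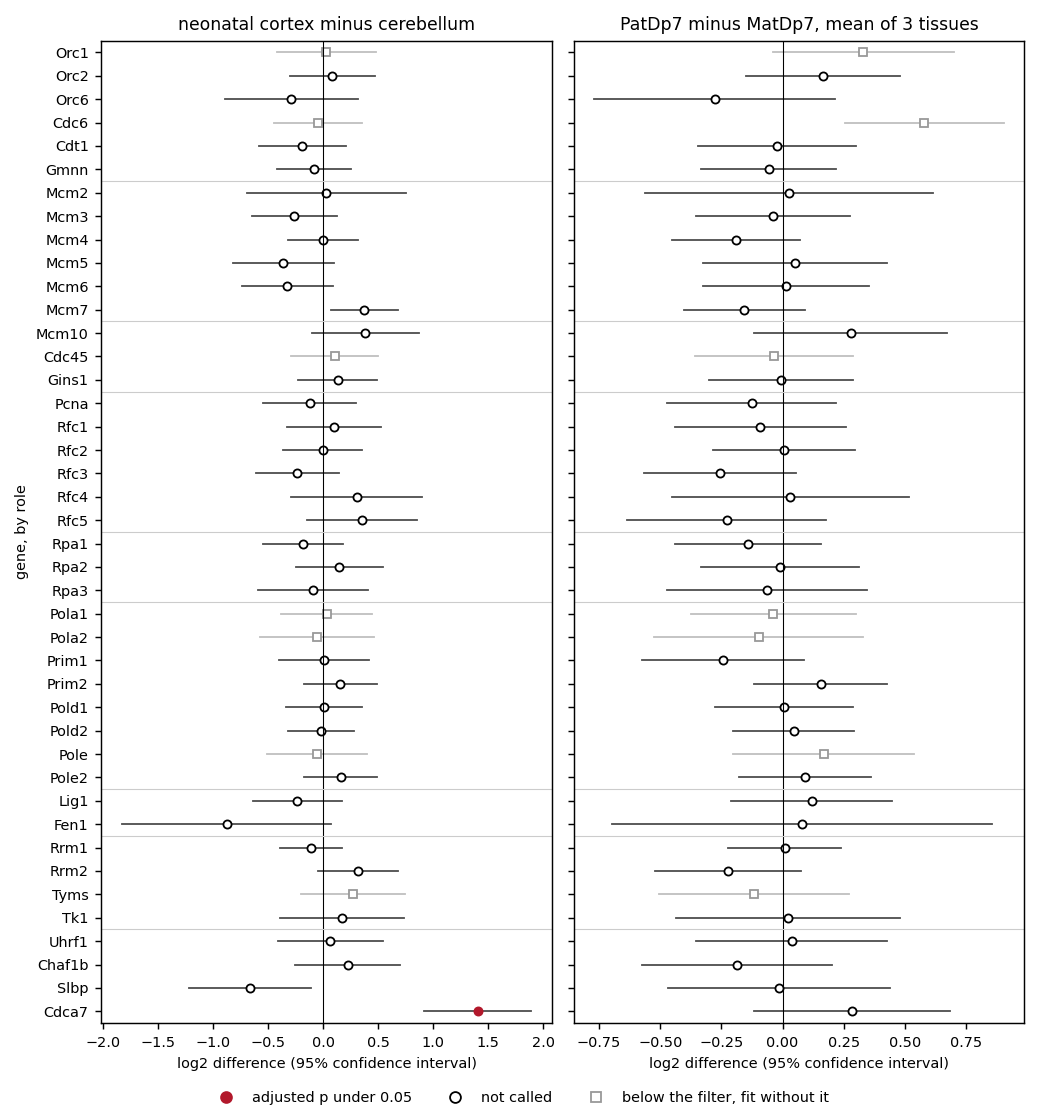
Log2 difference of the 42 genes between neonatal cortex and cerebellum (left) and between PatDp7 and MatDp7 in the mean of 3 tissues (right), with 95% confidence intervals; red marks an adjusted p under 0.05 and grey squares are genes under the filter. Cdca7 on the left, at 1.40, is the only red point in either panel.

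In cerebellum the PatDp7 arrays of Cdca7 (58.5 and 117) lay above the MatDp7 arrays (12.4 and 23.3), a difference of 0.97 ± 0.308 that was not called (limma adjusted p = 1.0). At 15.5 dpc its difference was -0.35 ± 0.308. Cdc6, under the filter, had PatDp7 arrays above the MatDp7 arrays in each tissue: 10.9 and 56.8 against 9.10 and 9.16 in cortex, 40.7 and 36.2 against 9.6 and 5.85 in cerebellum, 54.7 and 78.4 against 30.3 and 11.8 at 15.5 dpc, and 214 against 116 at 13.5 dpc. Most of these values are near or under the constant, and the mean difference of 0.58 ± 0.145 had a limma adjusted p of 1.0 in the fit without a filter (0.0751% of probe sets were called higher there and 0.0221% lower); Cdc6 was singled out after its values were seen.

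Of the 44 genes, 3 lie on chromosome 7 and none on chromosome 15. By the order of genes in RefSeq (GRCm38.p6), Lig1 and Pold1 lie between Peg3 and Ndn, and Rrm1 lies beyond Ndn. Their parental differences were 0.12 ± 0.146 (95% confidence interval -0.21 to 0.45) for Lig1, 0.01 ± 0.125 (-0.28 to 0.29) for Pold1 and 0.01 ± 0.103 (-0.22 to 0.24) for Rrm1.

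Further cell cycle genes were counted in the same fit. At the later step 7.18% of all tested probe sets were called lower and 4.09% higher. Of 27 tested replication genes outside the list, 5 fell from 15.5 dpc to birth and 0 rose, led by the remodeller Hells (-1.23 ± 0.143, adjusted p = 0.00407), topoisomerase Top2a (-1.27 ± 0.168, 0.00553) and the histone chaperone Asf1b (-0.93 ± 0.148, 0.00945), and their median difference was -0.39. Of 23 regulators of the step from G1 to S phase, 10 fell and 1 rose. Cdk4 (-1.41 ± 0.152, adjusted p = 0.00369), E2f6 (-0.89 ± 0.112, 0.00474) and Rbl1 (-0.97 ± 0.145, 0.00726) led those that fell; Cdk4 drives cells toward S phase, while E2f6 and the pocket protein Rbl1 are repressors. The gene that rose was Cdkn1a, the cell cycle inhibitor p21 (0.60 ± 0.155, 0.0404). Of 13 mitosis genes, 9 fell, led by Kif23 (-1.0 ± 0.121, 0.00419), Cdc20 (-1.16 ± 0.154, 0.00551) and Bub1b (-1.94 ± 0.262, 0.00562).

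At the earlier step 3 of the 27, 6 of the 23 and 3 of the 13 fell and 0 rose, where 2.75% of all probe sets were called lower. Those with the smallest adjusted p were Tipin, Top2a and Hells among replication genes (0.0381 to 0.0492), E2f1, Ccnd3 and Skp2 among G1/S regulators (0.0142 to 0.020), and Kif23, Ccnb2 and Aurka among mitosis genes (0.0153 to 0.0323). E2f1, an activating E2F factor, differed by -1.0 ± 0.170. Between the neonatal regions none of these genes was called.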

How the data were processed

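RNA from mouse brain was hybridised to Affymetrix 430A arrays. The deposited values are linear intensities from the authors' MAS5 processing (named in the submitters' processing notes, version not given in the sources used here), scaled to a 2% trimmed mean of 500.1 on every array. The 64 control probe sets were left out. A constant (the 20th percentile of all values, 52.0) was added, log2 taken from the deposited intensities, and probe sets with a mean at or above the 40th percentile kept. limma 3.58.1 (R 4.3.3) fitted 1 mean for each of 8 groups of tissue and duplication on all 14 arrays (6 residual degrees of freedom), with an intensity trend and Benjamini-Hochberg adjustment, and was tested on simulated data. Number of arrays limits precision. Genes came from the platform annotation: 20380 probe sets had 1 gene, 691 several and 1555 none. Figures were drawn with matplotlib 3.10.9.

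The genes and lists were chosen with earlier results of these data known. Named with values were, per comparison and role, the 2 called genes with the smallest adjusted p; for regions and parental origin every gene called or, with none called, the 2 with the smallest p in each direction; genes under the filter by intensity; and up to 3 called genes per further list and direction. Other genes are given by range or were named after their values were seen. Alternatives changed the constant, filter, scaling, probe set rule, trend, replicate terms and arrays.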

Additional observations from a re-analysis of the deposited data

Results flagged for a closer look

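In 3 of 105 sets of 4 arrays (35 genes in 3 tissues, duplications pooled), 1 array lay far from the other 3; chance gives about 1 in 20. Rfc5 read 219 on cortex PatDp7 replicate 2 against 378 to 400 on the other cortex arrays. Prim1 read 405 on cortex PatDp7 replicate 1 against 741 to 759. Gmnn read 232 on 15.5 dpc MatDp7 replicate 2 against 302 to 318.

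The differences of cortex and cerebellum from 15.5 dpc brain were unequal for Cdca7, by 1.40 on the log2 scale, in the direct test between the regions.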

How the results depend on the processing

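With 14 arrays and 6 residual degrees of freedom, the counts of called genes moved with single arrays more than the differences did. The share of all probe sets that was called moved with single arrays too. Leaving out 1 array at a time gave 8 to 22 genes from 15.5 dpc to birth, 0 to 17 in cortex, 7 to 19 in cerebellum, 0 to 8 from 13.5 to 15.5 dpc, and 0 to 1 between regions, while the median differences at the 2 age steps stayed between -0.74 and -0.67 and between -0.73 and -0.59. With the filter at the 60th percentile the counts were 12, 9 and 9 for the 3 comparisons with 15.5 dpc and 0 between regions. From 13.5 to 15.5 dpc the count was 6 with a constant of 16, 5 with median scaling, and 19 with only the neonatal arrays numbered 1 or 2 (16% and 15.9% of all probe sets). Between regions it was 0 with the constant at the 40th percentile, no filter, quantile normalization or median scaling, where 0.283% to 0.412% of all probe sets were called. It also moved with the neonatal arrays of 1 number alone. For the test between the 2 age steps it was 1 without the filter (Pole, whose later means lie under the constant) and 4 with the arrays numbered 1 alone, where 24.5% of all probe sets were called. In all, 8 of the 22 calls from 15.5 dpc to birth (Mcm3, Mcm4, Mcm7, Gmnn, Gins1, Rrm2, Tk1 and Cdca7) held in every alternative in which the gene was tested, and 0 of the 10 from 13.5 to 15.5 dpc did. Of these, Mcm3, Gmnn, Gins1, Tk1 and Cdca7 passed the filter through the embryonic arrays, since their neonatal mean alone did not reach it. They were called lower in the fit without a filter too. Over the called genes and their alternatives, 1347 values kept their call, 362 lost it and none changed sign; among genes not called, signs did change, as for Mcm10, Rfc1 and Chaf1b from 15.5 dpc to birth with the arrays numbered 1 alone and Prim2 from 13.5 to 15.5 dpc under median scaling. The causes of these changes were not tested.

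Over probe sets as a whole, same-numbered neonatal arrays deviated from their group means together (correlations of 0.71 to 0.82 over 6 pairs). The 9 pairs that include an embryonic array did not (-0.09 to 0.26). Over the replication genes alone the correlations ran from -0.08 to 0.61 in the 6 pairs and from -0.19 to 0.45 in the 9. With 2 numbers and no label on shared litters or days, the shared deviation is a hint from the data. With the neonatal replicate block, 28 genes fell from 15.5 dpc to birth (23.2% of all probe sets), 27 in cortex (19.7%), 24 in cerebellum (19.6%) and 20 from 13.5 to 15.5 dpc (9.05%). Between regions it gave 2 (Cdca7, and Slbp lower in cortex, adjusted p = 0.0141), and between the 2 steps 3 (Cdt1, Mcm7 and Rfc1), where 14.5% of all probe sets were called. A replicate block in neonatal and 15.5 dpc arrays gave 28 in cortex, 20 from 13.5 to 15.5 dpc, 2 between regions and 4 between the steps, where 40.1%, 22.8%, 4.43% and 16.9% of all probe sets were called. None of the 35 genes was called for parental origin under either block.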
